A study of Mus musculus with 12 samples.

Results

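Tbx21, the gene of T-bet, was read together with 9 genes of the type 1 programme (Eomes, Ifng, Stat4, Il12rb1, Il12rb2, Il18r1, Il18rap, Runx3 and Ccl5) in RNA sequencing libraries of mouse hepatic T cells. The 10 genes were taken by symbol from a table of 55401 genes, of which 22107 passed the filter on low counts, and all 10 passed. They were selected on the levels of Tbx21 with and without arachidonic acid in αβ cells, where it was nearly absent with the acid, so that comparison is a description and carries no test. The cells came from livers of adult C57BL/6 mice and were sorted as CD45+ CD3+ NK1.1- T cells without CD4 or CD8, called double negative (DN) T cells. The 4 groups of 3 libraries were cells with the αβ T cell receptor with arachidonic acid (AA), αβ cells without AA, cells with the γδ receptor with AA, and γδ cells without AA. AA is the precursor of prostaglandins and leukotrienes, and the stimulation lasted 48 h. The labels do not say whether cells without AA were kept in culture as long, nor whether each replicate was its own animal. The p-values thus measure the spread between these libraries only, and that spread may be technical.

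T-bet is the transcription factor that defines type 1 lymphocytes. Interleukin 12 acts through a receptor of the chains Il12rb1 and Il12rb2 and through STAT4, and together with interleukin 18 it raises T-bet and interferon γ. T-bet acts with Runx3 and, in CD8 T cells and natural killer (NK) cells, with its relative Eomes on Ifng and other effector genes, among them the chemokine gene Ccl5. In the liver T-bet and Eomes are best known from NK cells and type 1 innate lymphoid cells, while γδ T cells of mice include subsets that make interferon γ and subsets that make interleukin 17.

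Counts summed to 6036487 to 17021782 per αβ library with AA and to 18301268 to 30548253 in the other 9 libraries, so low values with AA in αβ carry the largest counting error. Levels are in CPM, counts scaled to one common library size, here by TMM unless stated. The δ chain gene Trdc went against the labels in replicate 3 of both groups without AA. Its counts per 100 CD3 counts (Cd3d, Cd3e and Cd3g together) in αβ without AA were 1.78 and 2.43 in replicates 1 and 2 but 35.4 in the library so labelled as replicate 3. In γδ without AA they were 36.1 and 42.7 in replicates 1 and 2 but 2.92 in replicate 3. Values that turn on these libraries are given with and without them. With AA, Trdc stood at 35.8, 13.1 and 22.7 in αβ and at 51.8, 35.2 and 23 in γδ, so the populations overlapped. The αβ libraries with AA were thus all above replicates 1 and 2 of αβ without AA. The 3 αβ receptor genes (Trac, Trbc1 and Trbc2) summed to 209 to 567 CPM of all counts in αβ with AA. They summed to 1372 to 1537 CPM in αβ without AA and 1527 to 2388 CPM in γδ with AA. All libraries were kept as labelled. Summed CPM of the 9 T cell markers, over all counts, ran from 292 to 767 in αβ with AA and from 1132 to 1831 in αβ without AA. They ran from 1256 to 2198 in γδ with AA and from 1382 to 2357 in γδ without AA. The 15 markers of macrophages and monocytes had medians of 2095 to 12786 CPM per group, most of it from the lysozyme gene Lyz2 in every library, and those of B cells had medians of 687 to 6156 CPM. Of the macrophage markers, C1qc and Vsig4 were at 0 in γδ with AA and Clec4f in αβ without AA. In such bulk samples fewer cells of a type and less RNA per cell cannot be told apart.

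The promoters of Tbx21, the gene with 1 count in αβ with AA, and of Ifng, its best known target, are shown from 250 bases upstream to the start site, from RefSeq on GRCm38.p6. Capitals mark the T-box site AGGTG, the core of the sequence T-bet binds, on either strand (CACCT on the other) and, in Ifng, the STAT motif TTCNNNGAA. The Tbx21 window is chr11:97115332-97115581 on the minus strand and the Ifng window chr10:118440796-118441045 on the plus strand.
Tbx21: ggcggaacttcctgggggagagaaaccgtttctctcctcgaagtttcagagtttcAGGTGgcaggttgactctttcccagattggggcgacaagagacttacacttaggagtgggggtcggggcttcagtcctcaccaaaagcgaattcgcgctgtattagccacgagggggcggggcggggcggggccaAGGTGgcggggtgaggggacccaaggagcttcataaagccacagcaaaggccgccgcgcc
Ifng: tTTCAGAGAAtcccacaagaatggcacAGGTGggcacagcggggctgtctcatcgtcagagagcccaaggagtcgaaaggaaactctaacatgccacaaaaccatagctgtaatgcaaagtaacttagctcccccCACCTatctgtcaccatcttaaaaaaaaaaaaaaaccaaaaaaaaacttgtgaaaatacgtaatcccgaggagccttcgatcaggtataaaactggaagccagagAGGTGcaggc
Tbx21 held the T-box site at positions -195 and -60 from its start, and Ifng at -223, -115 and -10, with a STAT motif at -249. Promoter windows of 300 bases were at hand for 8 of the 10 genes, 12 windows in all. This short site was in 9 of these 12 windows and in 51.9% of 32851 windows of all genes. The longer T-box site AGGTGTGA was in 0 of the 12 and in 1.28% of all windows, the RUNX motif TGTGGT in 3 of the 12 and 16.8%, and the STAT motif in 3 of the 12 and 8.3%. The motifs do not overlap in the windows shown, and a match is a description of letters only.

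Of the chains of the interleukin 12 receptor, Il12rb2 was low and uneven, and Il12rb1 was uneven in αβ with AA. Il12rb1 (ENSMUSG00000000791.9), the chain that the interleukin 12 and interleukin 23 receptors share, had 0, 5.31 and 29.3 CPM in αβ with AA, against 26.1, 17.1 and 29.2 CPM in αβ without AA. It had 21.6, 31.7 and 25.5 CPM in γδ with AA and 20.3, 29.3 and 17.0 CPM in γδ without AA. Apart from the αβ libraries with AA replicates 1 and 2, all libraries lay in the same range. Il12rb2 (ENSMUSG00000018341.12), the chain specific to interleukin 12, had 27.6, 0.743 and 12.5 CPM in αβ with AA, against 5.05, 5.60 and 6.13 CPM in αβ without AA. In γδ it had 8.89, 3.81 and 0 CPM with AA and 1.77, 5.77 and 0 CPM without AA. It was the only one of the 10 genes with a higher mean in αβ with AA than in αβ without AA, with replicates of αβ with AA on both sides of those without, and its log2 fold change of 1.28 ± 1.83 (SE) turned to -0.83 with limma voom and quality weights.

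In CPM Il18r1 separated the populations and Il18rap did so with AA, while per count of the CD3 genes both overlapped between the populations with and without AA. Il18r1 (ENSMUSG00000026070.15), the chain that binds interleukin 18, had 3.82, 15.9 and 38.2 CPM in αβ with AA, against 27.0, 40.5 and 28.8 CPM in αβ without AA. It had 75.5, 116 and 59.8 CPM in γδ with AA, against 60.4, 61.6 and 49.8 CPM in γδ without AA. Every γδ library was above every αβ library with the same treatment. Il18rap (ENSMUSG00000026068.11), the signalling chain of that receptor, had 8.10, 62.0 and 26.5 CPM in αβ with AA, against 73.2, 103 and 95.6 CPM in αβ without AA. It had 94.2, 125 and 152 CPM in γδ with AA, against 109, 94.1 and 144 CPM in γδ without AA. The αβ libraries with AA lay below all others for Il18rap, and those of γδ overlapped with and without AA.

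Stat4 (ENSMUSG00000062939.11), the transcription factor that carries the interleukin 12 signal, had the smallest spread relative to its mean of the 10 genes in αβ with AA, 44.9 ± 7.69 CPM (SD, n = 3). It had 52.6, 44.9 and 37.2 CPM there, against 111, 92.7 and 113 CPM in αβ without AA. In γδ it had 297, 146 and 184 CPM with AA, against 91.5, 147 and 78.9 CPM without AA. The lowest 3 of the 12 values were those of αβ with AA. The γδ groups overlapped only through replicate 2, at 146 CPM with AA and 147 CPM without.

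**Figure D1:**
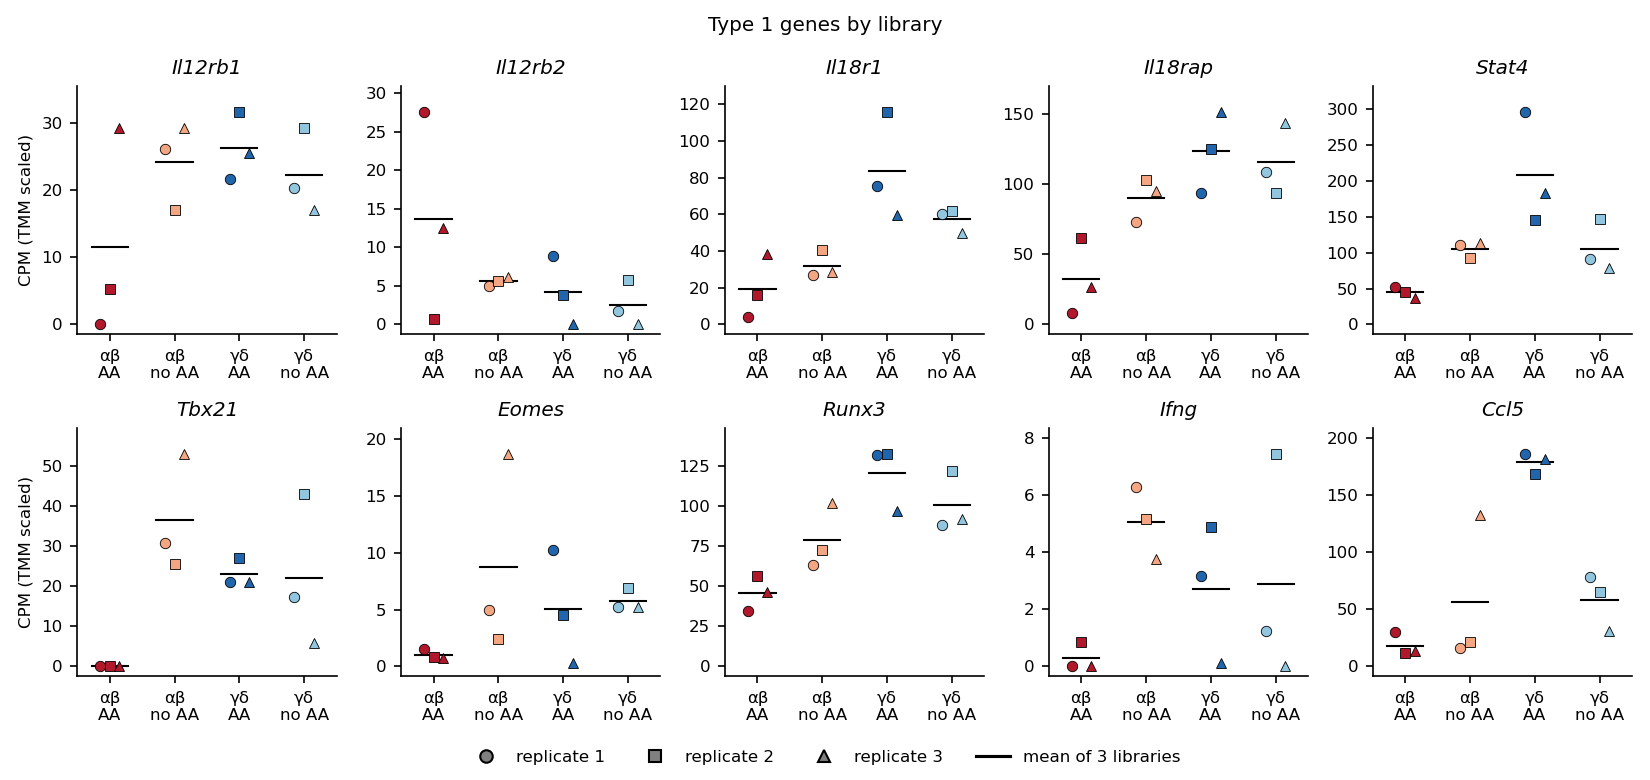
Level of each of the 10 genes in every library, in CPM scaled by TMM on a linear axis that differs between panels; symbols mark replicates and black lines the mean of 3 libraries. Tbx21 lay at 0, 0 and 0.182 CPM in αβ with AA and at 5.93 to 53.2 CPM in the other 9 libraries, and Ccl5 was above 160 CPM only in γδ with AA.

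Tbx21 (ENSMUSG00000001444.2) had counts of 0, 0 and 1 in αβ with AA, against 666, 509 and 1493 in αβ without AA. Its levels were 0, 0 and 0.182 CPM in αβ with AA and 30.9, 25.7 and 53.2 CPM in αβ without AA. In γδ it had 21.0, 27.0 and 21.1 CPM with AA, against 17.3, 43.2 and 5.93 CPM without AA. The αβ libraries with AA thus stood apart from all 9 others, while the γδ groups overlapped, those with AA lying within the range of those without. In αβ, 1 count of 32047040 with AA stood against 2668 counts of 73354651 without AA, so that the level per count was 1166 times higher without AA (exact 95% interval 209 to 46055, counting error only). A count of 0 allows up to 3 counts, or 0.334 and 0.176 CPM of all counts in replicates 1 and 2 of αβ with AA. In γδ the log2 fold change of Tbx21 with AA was 0.06 ± 0.80 (adjusted p = 1, edgeR's quasi-likelihood test, 95% interval -1.65 to 1.77), and -0.43 without γδ replicate 3 without AA, whose Trdc went against the label.

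The near absence of Tbx21 was set beside that of all genes. This restates the choice of the gene and describes how far it goes. Of 7483 genes at 5 CPM or more in each of the 9 libraries outside αβ with AA, Tbx21 alone had at most 1 count there in all, and 3 genes had at most 10 (Tbx21, Wdr89 and Gm47015). In each of the other 3 groups, 0 genes had as few. Single libraries were less clean. A count of 0 was found for 230 of the 7483 genes in replicate 1 of αβ with AA, for 4 in replicate 2 and for 147 in replicate 3. It was also found for 84 of 6628 genes in γδ with AA replicate 3, and for 0 to 4 genes in each of the other 8 libraries. A gene at 0 was therefore common in replicates 1 and 3 of αβ with AA and rare in replicate 2, where Tbx21 was 1 of the 4. The 11 markers of NK cells and type 1 innate lymphoid cells, which are known to express Tbx21, were summed in CPM of all counts. From lowest to highest the sums were 25.7, 67.3 and 93.8 CPM in αβ with AA, against 152, 184 and 237 CPM in αβ without AA. With AA 8 of the 11 were lower and 3 higher by log2 fold change. Without overlap 4 were lower, where 10.9% of all genes were. None of the 11 was at 0 in either group as a whole. The cells had been sorted as CD3+ NK1.1-, and the part of these 11 markers' cell types in the level of Tbx21 was not tested.

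**Figure D2:**
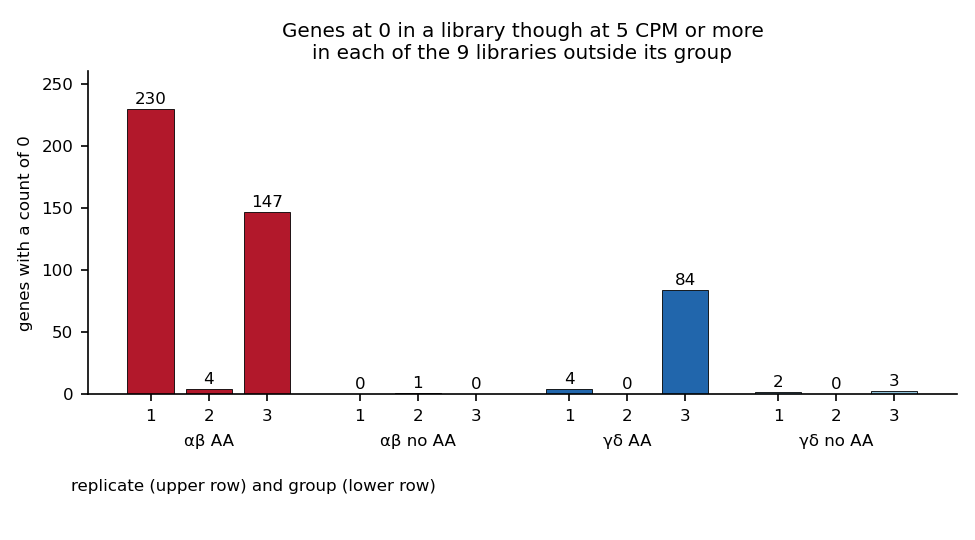
Number of genes with a count of 0 in each library among genes at 5 CPM or more in all 9 libraries outside its group; bars run over replicates 1 to 3 of each group. Replicates 1 and 3 of αβ with AA hold 230 and 147 such genes and γδ with AA replicate 3 holds 84, while replicate 2 of αβ with AA holds 4.

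Eomes (ENSMUSG00000032446.14), the second T-box factor of cytotoxic lymphocytes, was low throughout. It had 1.55, 0.796 and 0.727 CPM in αβ with AA, against 4.96, 2.42 and 18.7 CPM in αβ without AA. In γδ it had 10.2, 4.52 and 0.332 CPM with AA, against 5.18, 6.91 and 5.25 CPM without AA. The αβ groups did not overlap, yet the highest αβ value came from the library whose Trdc went against its label, and the log2 fold change with AA in αβ was -3.08 with it and -1.95 without both such libraries. Runx3 (ENSMUSG00000070691.10), which with T-bet silences Il4 and acts on Ifng, had 34.8, 56.3 and 46.3 CPM in αβ with AA, against 63.1, 72.5 and 102 CPM in αβ without AA. It had 132, 133 and 97.2 CPM in γδ with AA, against 88.2, 122 and 92.3 CPM in γδ without AA. The order for Runx3 was the one seen for Stat4 and Il18rap, with αβ with AA lowest and both γδ groups overlapping.

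Ifng (ENSMUSG00000055170.4), the gene of interferon γ and the signature cytokine of type 1 cells, was low, and at 0 in 3 of the 12 libraries. It had counts of 0, 16 and 0 in αβ with AA, against 135, 102 and 105 in αβ without AA, or 0, 0.849 and 0 CPM against 6.26, 5.15 and 3.74 CPM. In γδ it had 3.15, 4.89 and 0.111 CPM with AA and 1.25, 7.44 and 0 CPM without AA. Its αβ groups did not overlap, and replicate 3 had 2 counts or fewer in both γδ groups.

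Ccl5 (ENSMUSG00000035042.2), a chemokine that draws T cells and monocytes, was the only one of the 10 genes whose γδ groups did not overlap. It had 186, 168 and 181 CPM in γδ with AA, against 78.1, 64.9 and 30.7 CPM in γδ without AA. In αβ it had 29.9, 11.4 and 13.6 CPM with AA, against 16.4, 21.2 and 132 CPM without AA. The αβ groups overlapped. The αβ value of 132 CPM came from the replicate 3 library without AA, whose Trdc was at the level of γδ libraries. Without both libraries whose Trdc went against the label, the log2 fold change with AA in αβ was -0.14 in place of -1.63, and that in γδ 1.27 in place of 1.62. The 12 dendritic cell markers summed to 2680, 3126 and 4215 CPM of all counts from lowest to highest in γδ with AA, against 2233, 4249 and 7815 CPM in γδ without AA. Most of that sum was H2-Ab1, H2-Aa and Cd74, of the MHC class II group, which B cells and macrophages express too. The other 9 markers summed to 175, 122 and 132 CPM in γδ with AA, against 62.6, 42.2 and 36.9 CPM in γδ without AA, while Itgax among them had 4.37, 3.45 and 0.0532 CPM with AA, against 12.5, 7.95 and 13.8 CPM without AA, all per all counts. Clec9a was at 0 in γδ with AA and Cd209a in γδ without AA. The sum without those 3 genes was added after the values were seen. The 10 granulocyte markers summed to 1793, 2813 and 4018 CPM from lowest to highest in γδ with AA and 351, 1541 and 1752 CPM in γδ without AA. The sums of the macrophage and monocyte, the B cell, and the basophil and mast cell markers overlapped between these groups. The median log2 fold changes of those lists with AA in γδ were -1.45, -1.39 and -1.01. They were 0.08 for the 12 dendritic cell markers and 2.02 for the granulocyte markers. The part of any of these cell types in the level of Ccl5 was not tested.

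The group means in the comparison of AA with no AA in γδ come from none of the αβ libraries in which Tbx21 was picked. The filter, scaling and spread were taken from all 12 libraries, and the 10 genes were chosen with results of all libraries known. Of all genes tested, 0.00905% were called in this γδ comparison, and 0 of the 10 genes were. Calls used the quasi-likelihood test of edgeR, adjusted after Benjamini and Hochberg over 22107 genes. DESeq2 and limma voom also called 0 of the 10. At an unadjusted p under 0.05 by edgeR there were 2 of the 10, Stat4 and Ccl5, where 1600 of all 22107 genes were. The log2 fold change of Stat4 was 0.98 ± 0.34 (adjusted p = 0.635, edgeR), or 1.98-fold, and that of Ccl5 was 1.62 ± 0.68 (adjusted p = 0.635, edgeR), or 3.08-fold. The adjusted p of Ccl5 ranged down to 0.156 over the alternatives (limma voom) and that of Stat4 to 0.161. Of the 10 genes, 1 (Ccl5) was higher without overlap of the groups and 0 were lower, where 4.86% of all genes were higher and 7.08% lower without overlap. The median log2 fold change of the 10 genes was 0.25, against -0.06 over all genes. The receptors Il12rb1, Il18r1 and Il18rap, with log2 fold changes of 0.24 ± 1.14, 0.55 ± 0.61 and 0.10 ± 0.52, and Runx3 with 0.26 ± 0.33 had 95% intervals that include 0.

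With AA in αβ, the comparison that chose the genes, 9 of the 10 had negative log2 fold changes. The median of the 10 was -1.36, against 0.12 over all genes. The groups did not overlap for 6, all lower with AA (Tbx21, Eomes, Ifng, Stat4, Il18rap and Runx3), where 10.9% of all genes were lower and 8.27% higher without overlap. The log2 fold changes ranged from -0.74 ± 0.61 for Il18r1 and -0.79 ± 0.33 for Runx3 to -4.04 ± 2.33 for Ifng and -9.85 ± 1.30 for Tbx21, the last of which depends on the prior count. Scaling bore on the smaller of these, since with DESeq2's size factors the median of all genes was 0.50 in place of 0.12, and Stat4 then stood at -0.82 in place of -1.23 and Runx3 at -0.40 in place of -0.79. A drop of this size was not particular to the 10 genes. The 9 T cell markers had a median of -1.41 in the same comparison, with 9 lower, 5 of them without overlap. The median of the 3 αβ receptor genes was -1.88.

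**Figure D3:**
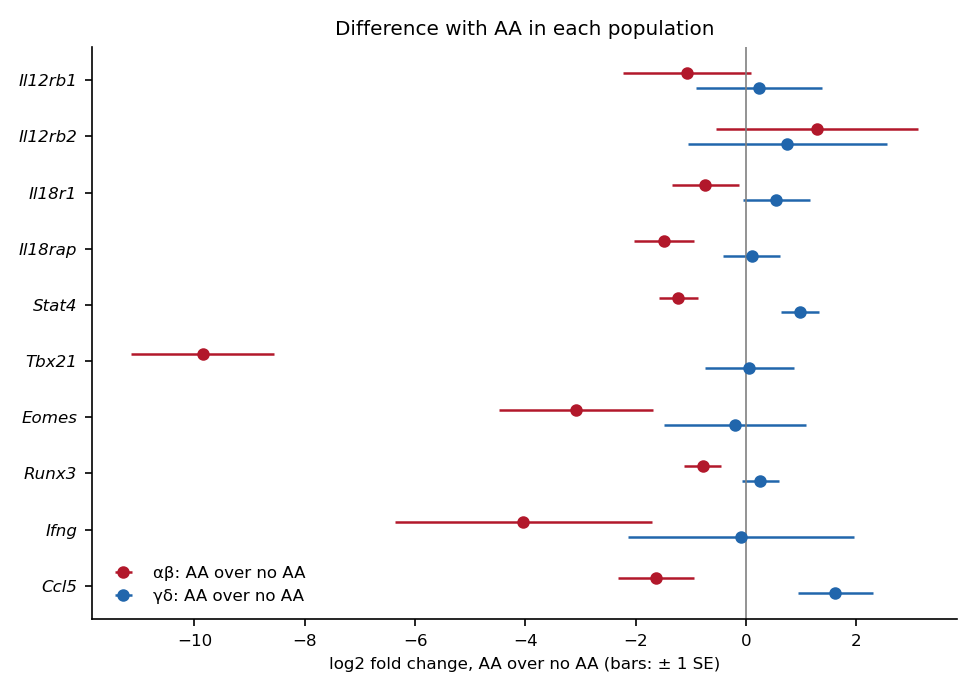
Log2 fold change of AA over no AA for the 10 genes in αβ (red) and γδ libraries (blue), with bars of 1 SE from the fit of all 12 libraries. Tbx21 stands at -9.85 in αβ and at 0.06 in γδ, and Stat4 and Ccl5 have opposite signs in αβ and γδ.

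No difference between γδ and αβ without AA was called for these genes. This comparison shares the αβ libraries without AA with the one that chose the genes, and the γδ libraries without AA with the γδ comparison above. Over all genes 0% were called, and 0 of the 10 genes were, with 0 of the 10 called by DESeq2 or limma voom. At an unadjusted p under 0.05 by edgeR there were 0 of the 10, where 729 of all 22107 genes were. The groups did not overlap for 1 gene, Il18r1, which was higher in γδ with a log2 fold change of 0.84 ± 0.61 (adjusted p = 1 by edgeR), where 3.14% of all genes were higher and 5.19% lower without overlap. Tbx21 stood at -0.72 ± 0.80 in γδ over αβ, with a 95% interval of -2.44 to 0.99, and at 0.04 without both libraries whose Trdc went against the label. Ccl5 stood at 0.03 ± 0.67, and at 1.87 ± 0.53 without those libraries (adjusted p = 0.796 by edgeR). Without them, which leaves 2 libraries a group, 4 of the 10 genes (Eomes, Il18r1, Runx3 and Ccl5) were higher in γδ without overlap and 0 lower, where 16.7% of all genes were higher and 21.2% lower. Stat4 differed by 0.0002 ± 0.34 on the log2 scale, with an interval of -0.73 to 0.73. With AA, 6 of the 10 genes were higher in γδ than in αβ without overlap (Tbx21, Stat4, Il18r1, Il18rap, Runx3 and Ccl5), where 9.1% of all genes were higher and 11.3% lower without overlap. This comparison shares the αβ libraries with AA with the one that chose the genes. The log2 differences there ran from 1.40 ± 0.33 for Runx3 to 9.18 ± 1.28 for Tbx21. Per CD3 count Tbx21 alone was higher without overlap in that comparison, and the log2 ratios of means were -0.17 for Stat4, -0.06 for Il18r1, -0.97 for Il18rap, -1.18 for Runx3 and 1.16 for Ccl5, all with overlap.

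Set against CD3 counts in place of all counts, Tbx21 was the only gene of the 10 lower without overlap in αβ with AA. It had 0, 0 and 0.0711 counts per 100 CD3 counts in αβ with AA, against 14.8, 9.89 and 8.59 in αβ without AA. In γδ it had 5.18, 4.97 and 6.68 with AA, against 2.30, 7.04 and 1.47 without AA. The γδ libraries without AA were below the αβ libraries without AA on this scale, with a log2 ratio of means of -1.62, and they were so too without both libraries whose Trdc went against the label. Stat4 had 41.6, 122 and 14.6 counts per 100 CD3 counts in αβ with AA, against 53.3, 35.7 and 18.2 in αβ without AA, so the groups overlapped. Runx3 likewise had 27.5, 153 and 18.1 with AA and 30.2, 27.9 and 16.5 without AA in αβ. The high values in αβ with AA came from replicate 2, which held 693 CD3 counts in all, against 1391 and 1406 in replicates 1 and 3 and 4505 to 17383 in the other 9 libraries. Without replicate 2, a choice made after the data were seen, 3 genes were lower without overlap in αβ with AA (Tbx21, Ifng and Il18rap), 1 was higher (Il12rb2) and 6 overlapped, Stat4 and Runx3 among them. Tbx21 was thus lower against all counts and against CD3 counts, with and without that library, and Stat4 and Runx3 against all counts only.

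In γδ, 5 of the 10 genes were higher with AA without overlap per CD3 count, against 1 of the 10 in CPM. The share of all genes without overlap per CD3 count was computed for no comparison, so these counts cannot be set against it. Ccl5 had 45.8, 30.9 and 57.3 counts per 100 CD3 counts in γδ with AA, against 10.4, 10.6 and 7.61 in γδ without AA, a log2 ratio of means of 2.23. Il18r1 had 18.6, 21.3 and 18.9 in γδ with AA, against 8.04, 10 and 12.4 in γδ without AA. Stat4 had 73.0, 26.9 and 58.2 with AA, against 12.2, 23.9 and 19.5 without AA. The log2 ratios of means were 1.51 for Stat4, 0.95 for Il18r1, 0.72 for Il12rb1 and 0.69 for Runx3. These ratios are descriptions and were not tested. The CD3 genes Cd3d, Cd3g and Cd3e themselves had log2 fold changes of -0.74 ± 0.59, -0.47 ± 0.55 and -0.02 ± 0.62 with AA in γδ.

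**Figure D4:**
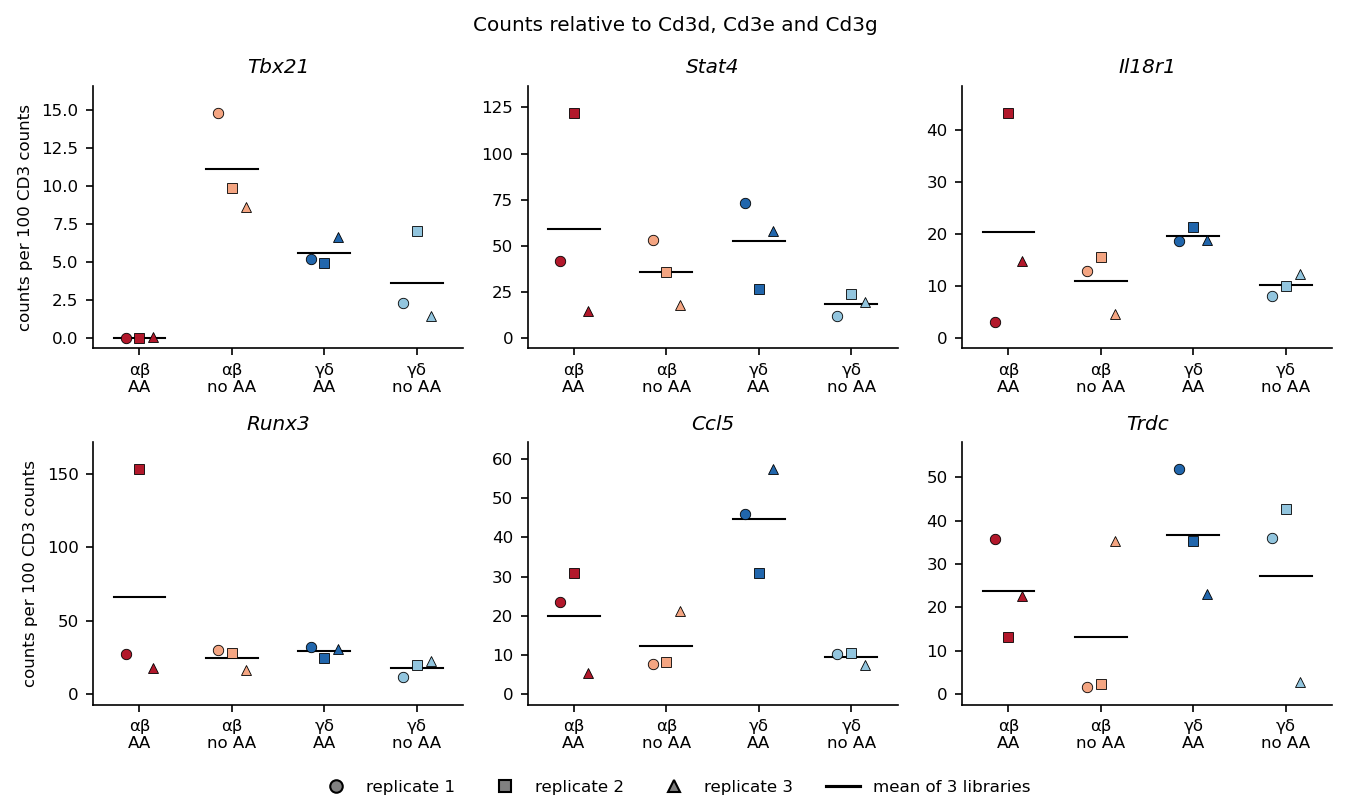
Counts of Tbx21, Stat4, Il18r1, Runx3, Ccl5 and Trdc per 100 counts of Cd3d, Cd3e and Cd3g in each library, on linear axes that differ between panels; symbols mark replicates and black lines the mean of 3 libraries. Tbx21 stays at 0 to 0.0711 in αβ with AA, Ccl5 reaches 30.9 to 57.3 in γδ with AA, and Trdc of replicate 3 without AA lies on the side of the other population in both populations.

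Genes around the programme were read from 6 lists, of which 84 genes were tested. In γδ with AA against γδ without AA, edgeR called 0 of the 84, and 8 were at an unadjusted p under 0.05. Of all 22107 genes, 2 were called and 1600 were at such an unadjusted p by edgeR. DESeq2 called 2 of the 84 and 279 of all genes, and limma voom 0 of the 84 and 21 of all genes. Without overlap, 14 of the 84 were higher (16.7%) and 6 lower (7.14%), where 4.86% of all genes were higher and 7.08% lower. Without γδ replicate 3 without AA these were 15 higher and 14 lower (17.9% and 16.7%), where 6.75% and 11.4% of all genes were. Between the populations without AA 0 of the 84 were called by edgeR, DESeq2 or limma voom. At an unadjusted p under 0.05 by edgeR there were 2 of the 84, where 729 of all 22107 genes were. Of the 84, 4 were higher and 4 lower without overlap (4.76% each, where 3.14% of all genes were higher and 5.19% lower). With the replicate 3 libraries of both groups left out, these were 29 and 9 (34.5% and 10.7%, where 16.7% and 21.2% of all genes were), and 0 were called by edgeR. Lists and genes below refer to AA in γδ, and each adjusted p is from edgeR.

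Among 8 genes of the cytokines that induce the programme, made mainly by myeloid cells, the median log2 fold change was 0.75, against -0.06 over all genes, with 5 above and 3 below 0. One of the 8 is Il18bp, whose product neutralises interleukin 18, and without it the median is that of Ebi3, 0.57. Without overlap 2 were higher and 0 lower (all genes 4.86% and 7.08%). Il12b, the subunit that interleukin 12 and interleukin 23 share, had 41.6, 30.3 and 43.5 CPM in γδ with AA, against 0, 8.38 and 5.30 CPM in γδ without AA. The groups did not overlap, and its log2 fold change was 3.07 ± 1.72 (adjusted p = 0.639). Il12a, the other subunit of interleukin 12, had 5.41, 4.89 and 0 CPM with AA, against 10.1, 12.6 and 3.61 CPM without AA, with overlap and a log2 fold change of -1.35 ± 1.47. Il15, which sustains NK and memory T cells, had 41.0, 33.1 and 13.9 CPM with AA, against 17.2, 7.36 and 8.77 CPM without AA. Ebi3, a subunit of interleukin 27, had 14.4, 14.8 and 21.6 CPM with AA, just above 13.4, 11 and 9.88 CPM without AA. The markers of all the cell types given with Ccl5 stand beside this list too. The sums of all 12 dendritic cell markers overlapped. Those of the 9 without the MHC class II genes did not, at 122 to 175 CPM of all counts with AA, against 36.9 to 62.6 CPM without AA. The granulocyte sums did not overlap either, at 1793 to 4018 CPM with AA, against 351 to 1752 CPM without AA. The part of these cell types in the levels of this list was not tested.

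Among 18 receptor and signalling partners, the median was 0.28, and 5 were higher and 1 lower without overlap (all genes 4.86% and 7.08%). Jak2, the kinase bound to the Il12rb2 chain, had 110, 101 and 170 CPM in γδ with AA, against 39.9, 51.3 and 15.5 CPM in γδ without AA, with a log2 fold change of 1.84 ± 0.64 (adjusted p = 0.635, edgeR). Jak2 was chosen after its values were seen. Jak1 and Ifngr1, a common cytokine receptor kinase and the binding chain of the interferon γ receptor, had log2 fold changes of 0.27 ± 0.23 and 0.38 ± 0.36, and Stat3 one of 1.01 ± 0.48 without overlap. Il15ra, which presents interleukin 15, had 66.0, 30.7 and 30 CPM with AA, against 12.2, 16.2 and 0.337 CPM without AA. Socs3, an inhibitor of STAT signalling, had 60.6, 21.3 and 0.277 CPM with AA, against 133, 58.0 and 19.1 CPM without AA, and the groups overlapped.

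Of the 14 transcription partners tested, 3 were higher and 0 lower without overlap (all genes 4.86% and 7.08%), with a median of 0.08. Hlx, a homeobox factor that acts with T-bet on Ifng, had 40.3, 21.7 and 36.1 CPM in γδ with AA, against 0, 9.73 and 8.05 CPM in γδ without AA. Bhlhe40, a factor that favours interferon γ over interleukin 10, had 551, 212 and 304 CPM with AA, against 104, 154 and 135 CPM without AA. Its log2 fold change of 1.44 ± 0.45 had an adjusted p of 0.635 (edgeR), and the gene was chosen after its values were seen. The most abundant partners, Ets1, Tcf7 and Id2, had log2 fold changes of -0.53 ± 0.39, 0.12 ± 0.51 and 0.47 ± 0.38. Batf, a partner of Jun proteins and IRF4, was lowest among those with a mean of at least 5 CPM, at -0.89 ± 0.69, with overlap.

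The 20 effector and surface genes had a median of -0.68, with 15 below and 5 above 0, and 1 was lower and 0 higher without overlap (all genes 7.08% and 4.86%). Cxcr6, a receptor of liver resident lymphocytes, had 325, 505 and 531 CPM with AA, against 471, 285 and 384 CPM without AA. Ccl3, a chemokine, and Klrd1, an inhibitory receptor chain, had log2 fold changes of -0.47 ± 0.47 and -1.17 ± 0.68, and Fasl, a death ligand, 0.40 ± 1.28.

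The 18 genes that interferon γ induces were split, with 3 higher and 4 lower without overlap (all genes 4.86% and 7.08%) and a median of -0.30. Ido1, an enzyme that degrades tryptophan, had 10.4, 6.84 and 28.5 CPM in γδ with AA, against 0, 0.491 and 0.0482 CPM in γδ without AA. Gbp2, a guanylate binding protein chosen after its values were seen, had 255, 160 and 152 CPM with AA, against 72.0, 113 and 70.2 CPM without AA. Tap1 and Psmb9, which prepare peptides for MHC class I, were lower without overlap, with 183, 179 and 162 CPM for Tap1 with AA, against 193, 319 and 238 CPM without AA. Psmb9 had 86.0, 84.5 and 97.4 CPM with AA and 159, 156 and 153 CPM without AA. Ciita, the switch of MHC class II genes, had a log2 fold change of -1.05 ± 0.76, and Irgm2, an immunity related GTPase, -2.40 ± 1.63. All adjusted p in this list were at least 0.635 by edgeR.

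Of the master regulators of other T helper classes, 6 were tested, with a median of 0.39. Gata3, of the type 2 class, had 127, 119 and 88.0 CPM with AA, against 68.7, 115 and 44.8 CPM without AA. Zbtb16, the factor of innate-like T cells, was higher without overlap, with a log2 fold change of 0.95 ± 0.65 (adjusted p = 0.738 by edgeR). Maf had 0.08 ± 0.57.

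**Figure D5:**
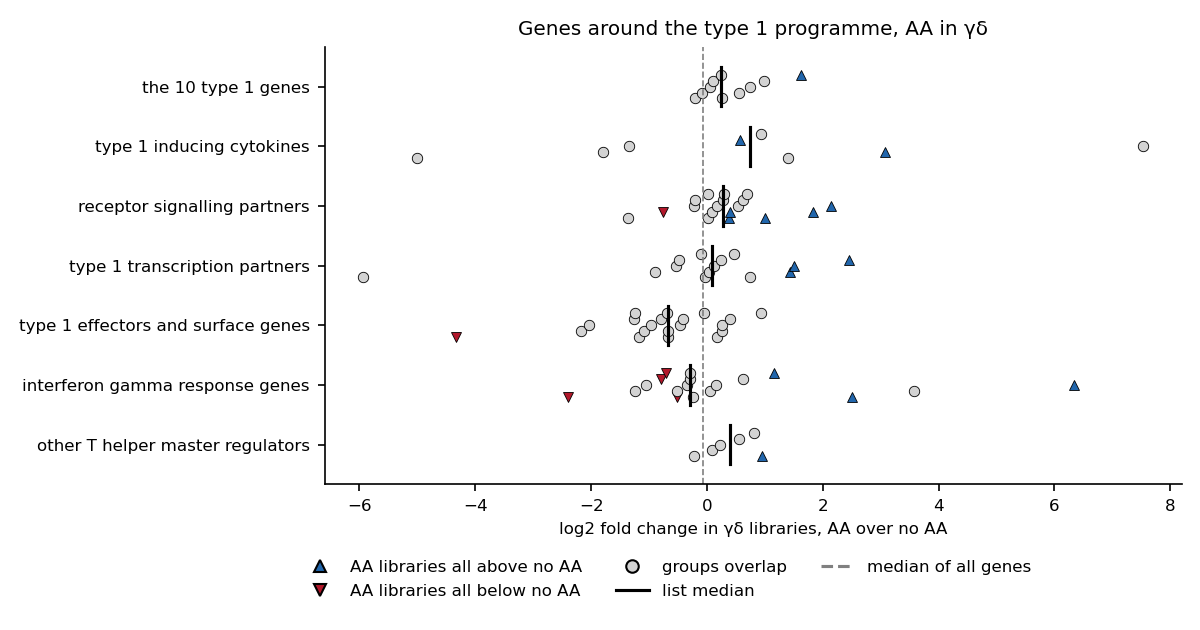
Log2 fold change of AA over no AA in γδ for the 10 genes and for the genes of 6 lists; triangles mark genes whose groups do not overlap, black bars the list median and the dashed line the median of all genes. The cytokine list has a median of 0.75 and the effector list one of -0.68, and the point farthest to the right is Il23a, which was at 0 CPM in 5 of the 6 libraries.

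Per length, Ccl5 stood first among the 10 genes in every group, while the last place went to Tbx21 in αβ with AA and to Il12rb2 in the other 3 groups. Over all 12 libraries the mean levels in CPM per kilobase of exon were 81.0 for Ccl5, 30 for Stat4, 17.3 for Runx3, 13.4 for Il18rap, 9.98 for Il18r1, 8.22 for Tbx21, 5.12 for Il12rb1, 2.11 for Ifng, 1.71 for Il12rb2 and 1.23 for Eomes. Tbx21 held the last place in αβ with AA, at 0.0243 ± 0.0422, against the fourth in αβ without AA, at 14.7 ± 5.87 (SD, n = 3 each). It was the sixth in γδ with AA, at 9.27 ± 1.38, and in γδ without AA, at 8.90 ± 7.68. Replicates were closest for Runx3 and Stat4, with biological coefficients of variation of 0.343 and 0.352, and farthest apart for Ifng at 1.63, against a median of 1.27 over all genes tested.

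The genes whose levels ran most like those of Tbx21 over the 12 libraries were Trp53, Bdh1 and Kat14, with Spearman correlations of 0.97, 0.96 and 0.95 among 10131 genes. Lck, the kinase of the T cell receptor, and Lag3, an inhibitory receptor of T cells, followed at 0.92 with Hdac7, Tagln2 and Babam1, and Cnot9 and Dpysl2 at 0.91. Of the other 9 genes Ifng was nearest to Tbx21 at 0.82, then Stat4 and Il12rb1 at 0.69 each. The genes most like Ifng were Zfp512 at 0.95, Arid2, Icmt and Ubtf at 0.92 and Znhit6 at 0.90. Those most like Ccl5 were Arhgap31, Laptm4b and Vwa5a at 0.97, Prr13 at 0.96 and Ahnak at 0.95, and Stat4 and Runx3 stood at 0.83. These correlations share the libraries and their depth, and all rest in part on the low αβ libraries with AA, in which Lck averaged 73.7 ± 16.0 CPM, against 375 ± 29.3 CPM in αβ without AA (SD, n = 3 each).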

How the data were processed

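RNA sequencing of 12 libraries, 4 groups of 3 by their labels, was deposited by the authors as one table of raw read counts per gene. Per the labels' protocols, RNA was taken with Trizol and made into libraries with an Illumina TruSeq kit. Per the submitters' processing notes, Bowtie 0.12.2 was used, with mm8 as the build. How reads were counted, with which annotation and strand, is not given in the sources used here, so counts of overlapping genes are uncertain. Symbols came from GENCODE M21 by identifier without version (55141 of 55401 identifiers, 260 unnamed), as did exon lengths. Promoter sequences came from RefSeq on GRCm38.p6, a later build than mm8.

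Genes were kept by filterByExpr (minimum count 10), which left 22107, scaled by TMM, and fitted in all 12 libraries by group, which left 8 residual degrees of freedom (edgeR 4.0.16 in R 4.3.3). Calls used glmQLFTest with Benjamini-Hochberg adjustment at 0.05; errors of log2 fold changes are SE. Chi-square values per degree of freedom between replicates were 52.4 to 268, so none was a copy of another. Alternatives were DESeq2's size factors, library size alone, no filter, 5 CPM in 3 libraries, DESeq2 1.42.0, a fit of the compared groups alone, a block for the replicate number, voom of limma 3.58.1, omission of each library, of both libraries whose Trdc went against the label, and of 2 repeat genes. Counts of groups without overlap lacking those libraries, and CD3 ratios lacking αβ with AA replicate 2, were added after the data were seen. Exact intervals and floors (3 counts) cover counting error only. Scripts were checked on simulated data.

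The members and lists were chosen with earlier results of these data known. Named were all 10 genes; in each list the 3 genes of highest mean CPM and those with the largest and smallest log2 fold change with AA in γδ at a mean of 5 CPM or more; and the 10 genes most like Tbx21 and 5 each most like Ifng and Ccl5 on log2 CPM (prior count 2). Jak2, Bhlhe40 and Gbp2 were named outside this rule. Some genes that it takes are left out of the text.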

Additional observations from a re-analysis of the deposited data

Results flagged for a closer look

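In CPM, AA went with opposite differences in the populations for 2 genes. They were Stat3, the transcription factor of interleukin 6 and related cytokines, and Gbp2, a guanylate binding protein that interferon γ induces. Stat3 had 775, 613 and 556 CPM in γδ with AA, against 252, 410 and 302 CPM in γδ without AA, so every library with AA was higher. In αβ it had 57.6, 347 and 379 CPM with AA, against 460, 462 and 450 CPM without AA, so every library with AA was lower. The difference of the log2 effects, γδ minus αβ, was 1.82. Gbp2 had 255, 160 and 152 CPM in γδ with AA, against 72.0, 113 and 70.2 CPM in γδ without AA, and in αβ 53.4, 36.2 and 65.4 CPM with AA, against 76.5, 105 and 178 CPM without AA. Its difference of effects was 2.37. Neither difference was tested. In αβ with AA the 9 T cell markers were lower too, with a median log2 fold change of -1.41. Stat3 and Gbp2 were not set against CD3 counts, so the opposite differences hold for CPM only.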

How the results depend on the processing

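In both tested comparisons 0 of the 10 genes were called under the 22 alternatives tried for each. Of 220 alternative log2 fold changes per comparison, 12 for AA in γδ and 16 for γδ against αβ without AA changed sign, each in 5 genes. For AA in γδ these were Tbx21 at -0.43 without both libraries whose Trdc went against the label, and Ifng at 0.84 with the replicate number as a block and 1.58 with limma voom. For γδ against αβ without AA they were Tbx21 at 0.04, Eomes at 0.65 and Il12rb1 at 0.14 without both those libraries, Eomes at 0.24 and Il12rb1 at 0.04 with limma voom, and Stat4 at -0.0026 in the fit of only the groups compared. With each library left out in turn, AA in γδ gave -0.43 to 0.94 for Tbx21, -1.21 to 0.38 for Eomes, -0.89 to 2.07 for Ifng, -0.36 to 2.20 for Il12rb2 and -0.09 to 0.30 for Il18rap. The comparison without AA gave -1.01 to 0.63 for Eomes, -0.33 to 0.13 for Stat4, -0.40 to 0.03 for Il12rb1 and -0.39 to 1.59 for Ccl5. The cause was not tested. Same-numbered libraries did not deviate together (correlations -0.04, 0.14 and 0.06 for AA in γδ and -0.02, -0.04 and -0.18 without AA), so the numbers were not taken as pairs, and 1 of the 6 libraries compared correlated best with its own number. With the replicate block, genes called over the whole table for AA in γδ were 22 in place of 2, those with DESeq2 279, with limma voom 21, without a filter 146 and without both doubted libraries 5; between populations without AA they were 79 with DESeq2, 12 without a filter and 6 without both doubted libraries, in place of 0. Low counts limit what can be said of Tbx21, Ifng, Eomes, Il12rb1 and Il12rb2, which had fewer than 10 counts in at least 1 library. These were not only in the αβ libraries with AA, which had the fewest counts. Ifng and Il12rb2 had 0 counts in γδ without AA replicate 3, which held 20983619 counts in all. The cause of these low counts was not tested.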
